A study of Mus musculus with 13 samples.

Results

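Transcripts of 2 imprinted gene clusters, the Peg3 cluster (Peg3, Usp29 and Zim1) and the Peg10 cluster (Peg10, Sgce, Ppp1r9a, Asb4, Pon2 and Pon3), were followed in primordial germ cells, which later give rise to sperm, of male mouse embryos at E14.5. The 9 genes were taken by symbol from a table of 35976 gene symbols, and all 9 were found. Sorting used Oct4-GFP, a green fluorescent reporter read from the promoter of a gene active in germ cells, and each mRNA library came from 5000 cells. Of 4 Tet1 genotypes, KO is the knockout, HxD codes for a catalytically inactive protein, V codes for a protein that oxidises no further than 5-hydroxymethylcytosine, and WT is the wild type; the roles of HxD and V are background knowledge and not in the labels. Each genotype had 3 libraries, a further WT sample was not analysed here, and the labels name neither the deleted part of Tet1 nor separate animals or pools. The p-values therefore measure the spread between these libraries, which may be technical.

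An imprinted gene is read mainly from the copy inherited from a single parent, and the choice is set by DNA methylation placed on a control region in the egg or in sperm. The control regions of the Peg3 and Peg10 clusters carry this methylation on the maternal copy, Peg3, Usp29, Peg10 and Sgce are read from the paternal copy, and Zim1, Asb4, Ppp1r9a, Pon2 and Pon3 are known as maternally expressed in some tissues. Primordial germ cells erase these marks before new ones are laid down, and TET1 oxidises 5-methylcytosine, a step towards its removal. The series asks what the catalytic activity of TET1 does at such control regions. The counts here do not tell the parental copies apart.

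The Peg3 cluster lies on mouse chromosome 7 and the Peg10 cluster on chromosome 6. In GRCm38 (mm10, GENCODE M21), a build that the submitters' processing notes name beside GRCm39 with no role for either, Peg3 runs from 6703892 to 6730431 on the minus strand and Usp29 from 6730578 to 6967219 on the plus strand. Zim1 lies beyond Peg3, from 6671269 to 6696450 on the minus strand. Sgce (4674350 to 4747207, minus strand) and Peg10 (4747306 to 4760517, plus strand) also start back to back. Ppp1r9a (4902917 to 5165661), Pon3 (5220852 to 5256286), Pon2 (5264147 to 5298455) and Asb4 (5383386 to 5433022) follow downstream of Peg10.

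**Figure D1:**
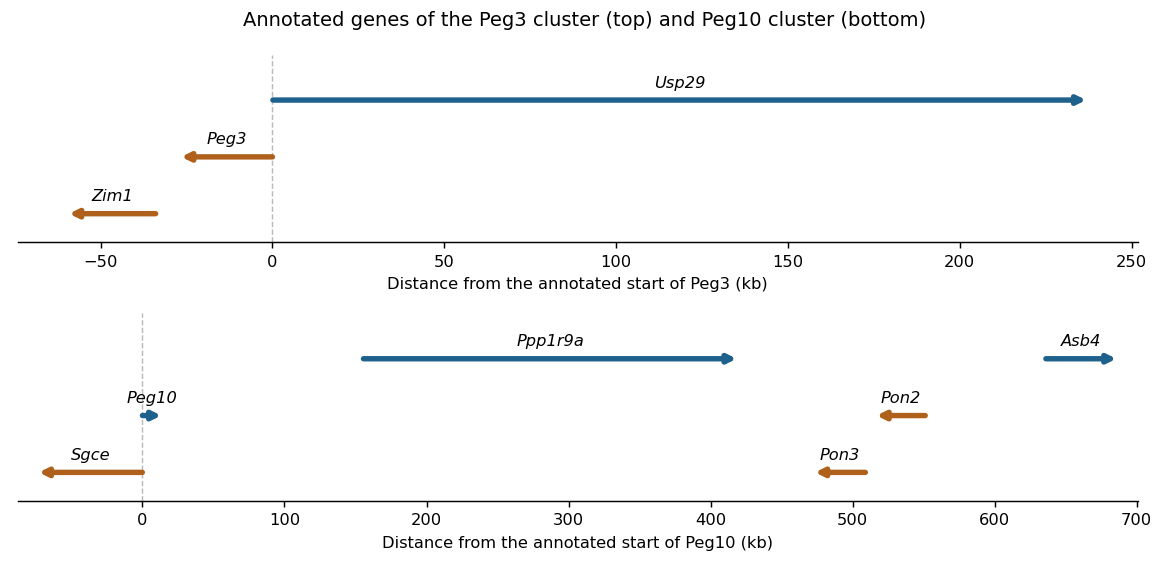
Annotated spans of the 9 genes, with distance in kb from the annotated start of Peg3 (top) or Peg10 (bottom) on the horizontal axis and arrows pointing in the direction of transcription (blue, plus strand; brown, minus strand). Peg3 with Usp29, and Sgce with Peg10, start back to back and run apart.

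RefSeq promoter windows of GRCm38.p6, 250 bases before to 50 after a start, were found for 7 of the 9 genes, and not for Peg10 and Sgce. The windows of Peg3 (chr7:6730370-6730669, minus strand) and Usp29 (chr7:6730333-6730632, plus strand) share 263 bases, and their starts lie 164 bases apart. The sequences shown are those of Peg3 and Asb4 (chr6:5383136-5383435, plus strand), the 2 members whose unadjusted p was under 0.05 in a comparison with WT. Capitals mark CG dinucleotides, the letters on which this methylation falls.
Peg3: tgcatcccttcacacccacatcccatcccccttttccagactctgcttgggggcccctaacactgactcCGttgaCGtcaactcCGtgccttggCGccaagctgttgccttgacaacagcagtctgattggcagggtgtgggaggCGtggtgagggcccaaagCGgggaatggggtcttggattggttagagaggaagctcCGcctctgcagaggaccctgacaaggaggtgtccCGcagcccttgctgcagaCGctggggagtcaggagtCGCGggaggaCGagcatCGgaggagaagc
Asb4: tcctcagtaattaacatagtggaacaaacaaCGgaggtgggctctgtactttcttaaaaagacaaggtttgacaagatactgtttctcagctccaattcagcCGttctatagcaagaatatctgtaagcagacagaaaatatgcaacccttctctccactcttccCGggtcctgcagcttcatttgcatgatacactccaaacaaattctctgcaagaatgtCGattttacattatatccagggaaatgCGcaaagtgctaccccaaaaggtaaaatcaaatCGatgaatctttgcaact
The Peg3 window held 13 CG dinucleotides and the Usp29 window 17, against a median of 7 over 32851 windows of 300 bases. Zim1 had 20, Pon2 31 and Pon3 7, the 2 Ppp1r9a windows had 48 and 10, and the 2 Asb4 windows had 6 and 8. The letters TGACGTCA, a binding motif of CREB and ATF factors, stand at position 73 of the Peg3 window counted from its 5′ end, and the same site stands at position 258 of the Usp29 window. Of all windows, 1.79% hold TGACGTCA on either strand. The hexamer TGCCGC, bound by the imprint factor ZFP57 when methylated, was found on the reverse strand in the windows of Zim1 and Pon3 and in 11.6% of all windows. The letters GCCATNTT, a core of the YY1 motif, were found in none of these windows and in 6.05% of all windows, with both strands searched. Sequence farther than 50 bases into a gene was not searched, so the rest of the control regions is not covered. Matches describe the letters of a window and do not show that a factor binds there.

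Total counts ranged from 13584484 to 29641963 per library. Levels are given as CPM, counts scaled by library size with TMM factors, and a gene is called at an edgeR adjusted p under 0.05 over the 14702 genes tested. Tet1, the targeted gene, had 213, 201 and 225 CPM in KO, 607, 735 and 536 in HxD, 364, 450 and 625 in V, and 596, 589 and 639 in WT, so every KO library lay below every other. All 13 germ cell markers checked, among them Pou5f1 and Ddx4, were detected in each genotype, with a summed level of 4800 to 5150 CPM in KO, 4840 to 5570 in HxD, 5270 to 5600 in V and 5830 to 5930 in WT. Dazl, a germ cell RNA-binding protein gene, was the called one among them. Its mean was 849 ± 193 CPM in KO (edgeR adjusted p = 0.00943), against 1750 ± 150 in WT. HxD had 793 ± 192 CPM of Dazl (edgeR adjusted p = 0.00935). The lower sums were not shared by all 13 markers, whose median log2 fold change over WT was 0.05 (KO), 0.03 (HxD) and 0.06 (V). At an unadjusted edgeR p under 0.05, KO had 3 markers higher and 2 lower than WT. HxD likewise had 3 higher and 2 lower, while V had 4 higher and 2 lower. The 10 markers of interstitial cells, which include fibroblasts of the gonad, summed to 5.42 to 28.6 CPM in KO, 16.3 to 26.1 in HxD, 1.85 to 34.6 in V and 6.88 to 12.6 in WT. Of these, Lum was at 0 in every library, Dcn in all HxD, V and WT libraries, Tcf21 in all KO, Acta2 in all V and Nr2f1 in all WT libraries. The 10 Sertoli cell markers summed to 19 to 70.3 CPM in KO, 11.2 to 43.1 in HxD, 19.3 to 351 in V and 16.4 to 106 in WT. Amh led this list and had counts in every library, Fshr was at 0 in all KO, HxD and V libraries, Sox9 in all HxD and WT libraries, and Cst9 in all WT libraries. The 7 Leydig cell markers summed to 3.67 to 35.7 CPM in KO, 0.941 to 28.8 in HxD, 3.53 to 30.5 in V and 0.92 to 4.96 in WT, with Lhcgr at 0 in every library. The 8 macrophage markers summed to 0 to 3.71 CPM in KO, 0 to 2.7 in HxD, 5.63 to 32.4 in V and 0.551 to 3.07 in WT. Endothelial markers (7) summed to 203 to 296 CPM in KO, 168 to 286 in HxD, 141 to 174 in V and 184 to 233 in WT. Pecam1 led that list in each genotype, and Tie1 and Emcn were at 0 in every library. In the same order, 7 erythroid markers summed to 0 to 17.8, 0 to 2.36, 1.36 to 6.39 and 0 to 13.5 CPM. For 5 granulosa cell markers the sums were 2.16 to 2.91, 0 to 3.75, 4.75 to 11.9 and 1.45 to 21.3 CPM. The part of these other cells in the values of the clusters was not tested. In such bulk libraries, fewer cells of a type and less RNA per cell cannot be told apart.

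Peg3 was by far the most abundant transcript of either cluster. Per kilobase of annotated exon, it averaged 21.8 ± 7.05 CPM in KO, 33.4 ± 6.69 in HxD, 28.6 ± 10.9 in V and 39.2 ± 5.55 in WT (SD, n = 3 each). Asb4 came next in WT with 10.6 ± 4.48 CPM per kilobase, beyond the spread of its neighbours in that order. Then came Pon3 (2.5 ± 1.38), Pon2 (1.58 ± 1.16), Usp29 (1.2 ± 0.786) and Ppp1r9a (1.16 ± 0.278), which did not differ from each other beyond their spread. Peg10 averaged 0.402 CPM per kilobase in WT, which overlapped the spread of Ppp1r9a, Zim1 averaged 0.0393 within the spread of Peg10, and Sgce was at 0 in all WT libraries. Exon lengths are those of GENCODE M21, which may differ from the annotation that was counted.

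Against WT, no member was called in KO, HxD or V by edgeR, and DESeq2 called 0 members in each comparison as well. The low-count filter passed 8 of the 9, all but Sgce. EdgeR called 0.218% of all tested genes in KO, 0.034% in HxD and 0% in V. For V that is 0 genes, although DESeq2 called 81 and edgeR gave 419 higher genes (2.85%) and 471 lower ones (3.2%) with an unadjusted p under 0.05. At an unadjusted p under 0.05, Peg3 was lower in KO (4.54% of all genes were lower at that threshold) and Asb4 was lower in HxD (4.82% of all genes). No member reached that threshold in V. The median log2 fold change of the 8 tested members was -0.32 in KO, -0.53 in HxD and -0.17 in V, against 0.00, -0.02 and 0.01 over all tested genes. Of these members, 5 were lower in KO, 7 in HxD and 4 in V, against 49.5%, 51.6% and 48.9% of all tested genes. The medians include Peg10 and Zim1, whose fitted values turn on libraries at 0. These 3 comparisons share the WT libraries. Peg3 was the only member whose KO and WT libraries did not overlap, where 8.15% of all tested genes lay wholly lower in KO and 8.13% wholly higher. No member stood wholly apart from WT in HxD, where 7.22% of all genes lay lower and 5.26% higher, or in V, where 6.06% lay lower and 5.75% higher.

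**Figure D2:**
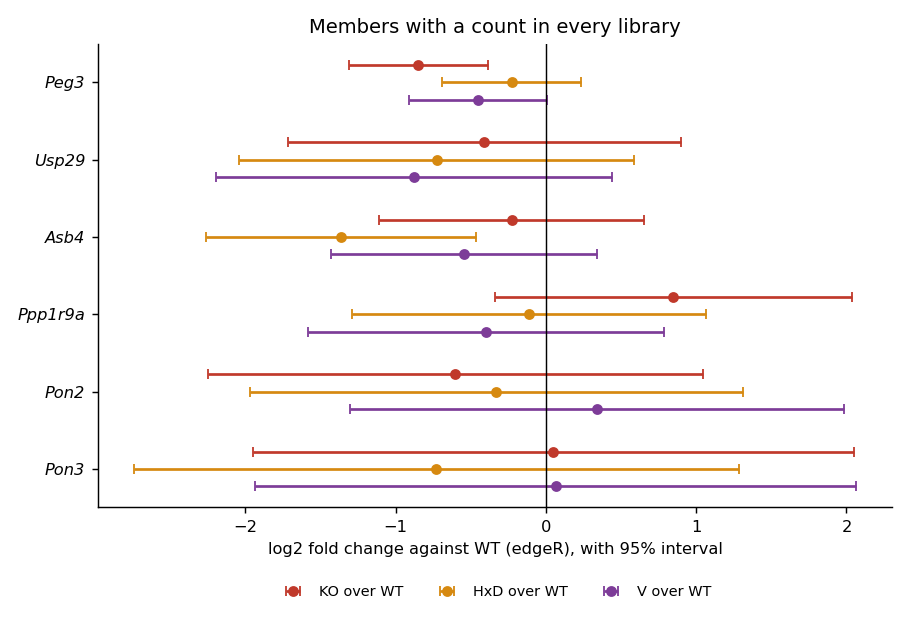
Log2 fold changes against WT (horizontal axis, edgeR) of the 6 members with a count in every library (vertical axis), with 95% intervals, for KO (red), HxD (orange) and V (purple). Only the intervals of Peg3 in KO (-1.31 to -0.38) and Asb4 in HxD (-2.26 to -0.47) leave out 0, and neither gene was called after adjustment.

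Peg3 encodes a large zinc finger protein that binds DNA. Its level was 382, 195 and 293 CPM in the KO libraries, 406, 547 and 382 in HxD, 224, 409 and 512 in V, and 451, 598 and 516 in WT. Every KO library lay below every WT library, while HxD and V each overlapped WT, and V spanned the widest range. The mean was 290 ± 93.9 CPM in KO against 522 ± 73.9 in WT (SD, n = 3 each). The log2 fold change of KO over WT was -0.85 (SE 0.23, unadjusted p = 0.00078, edgeR adjusted p = 0.13), a level 1.80-fold lower that did not pass the adjusted threshold. It was negative in all settings run. Without KO replicate 1 it was -1.10 and called (edgeR adjusted p = 0.0165), and without any filter on low counts it was -0.85 and called (edgeR adjusted p = 0.000595). Without KO replicate 2 it was -0.63 (edgeR adjusted p = 0.313), and DESeq2 gave -0.85 (adjusted p = 0.204).

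In HxD, Peg3 differed from WT by -0.23 (95% interval -0.69 to 0.23, edgeR adjusted p = 0.891), and in V by -0.45 (95% interval -0.91 to 0.01, edgeR adjusted p = 0.821). The V value was -0.17 without V replicate 1 and -0.72 without V replicate 3. Peg3 in HxD exceeded that in KO by 0.62 (SE 0.23, unadjusted p = 0.0103, edgeR adjusted p = 0.884), which did not pass the adjusted threshold. At that unadjusted threshold 1.88% of all genes were higher in HxD than in KO. EdgeR called 0.0068% of all genes between HxD and KO, a single gene, Tet1 itself.

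The longest annotated Peg3 transcript is 8.69 kb, and long transcripts as a class sat slightly lower in the mutants. Among the 13843 tested genes with a GENCODE transcript length (94.2%), the 792 with a transcript of 8 kb or more had a median log2 fold change of -0.14 in KO, -0.14 in HxD and -0.18 in V, against 0.01, -0.01 and 0.02 for the shorter genes. The low libraries of Peg3 were KO 2 and V 1. In these the long genes deviated from their own mean over all libraries by a median of -0.09 and -0.23 log2 units. Peg3 deviated by -1 and -0.79 there, and the shorter genes by a median of 0.13 and 0.08. In WT 1, WT 2 and WT 3 the long genes deviated by 0.24, 0.16 and 0.08, and Peg3 by 0.21, 0.62 and 0.41. In HxD 3 the long genes deviated by -0.16 and Peg3 by -0.03. For KO 1 the long genes deviated by 0.11 and Peg3 by -0.03. KO 2 was also the KO library with the highest summed markers of Sertoli cells (70.3 CPM), interstitial cells (28.6 CPM) and Leydig cells (35.7 CPM). V 1 had the highest interstitial sum of all libraries (34.6 CPM), with 19.7 CPM of Sertoli and 3.53 CPM of Leydig markers. The highest Sertoli sum was that of V 2 (351 CPM), where Peg3 was at 409 CPM. HxD 2 had 26.1 CPM of interstitial markers, with Peg3 at 547 CPM. The part of these markers in the Peg3 values was not tested. The length comparison was chosen after the values were seen, and its part in the Peg3 result was not tested.

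Usp29, which encodes a ubiquitin-specific protease, starts beside Peg3 and was read far less. Its level was 15.6, 11.9 and 21.3 CPM in KO, 21, 6.2 and 12 in HxD, 4.83, 12.4 and 18.1 in V, and 12.8, 14.1 and 38 in WT. The groups overlapped throughout, with WT 3 the highest library of all. Log2 fold changes over WT were -0.41 in KO (SE 0.64), -0.73 in HxD (SE 0.64) and -0.88 in V (SE 0.65), with edgeR adjusted p of 0.996, 0.842 and 0.908. In KO the value was 0.27 without WT replicate 3, in HxD -0.043 and in V -0.19, so the size of each rested on that library.

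Across the 12 libraries, Peg3 and Usp29 had a Pearson r of 0.31 (permutation p = 0.322, adjusted over 2 gene pairs 0.644) and a Spearman rho of 0.26 (permutation p = 0.417, adjusted 0.834), from two-sided tests on log2 CPM. With KO 2 and V 1 left out, the libraries farthest from the Peg3 median, r was -0.19. Without KO 2 alone it was 0.33 and without V 1 alone 0.02, so the small positive value rested on V 1, and over all libraries left out in turn it ran from 0.02 to 0.54. Zim1, a zinc finger gene read mainly from the maternal copy, had counts in 6 of 12 libraries. They were 42, 52 and 0 in KO, 146, 0 and 0 in HxD, 10, 66 and 0 in V, and 19, 0 and 0 in WT. Each genotype had a library at 0, where a count of 0 allows a level of up to 0.103 to 0.22 CPM depending on the library (3 counts, counting error only), and no fold change is given.

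**Figure D3:**
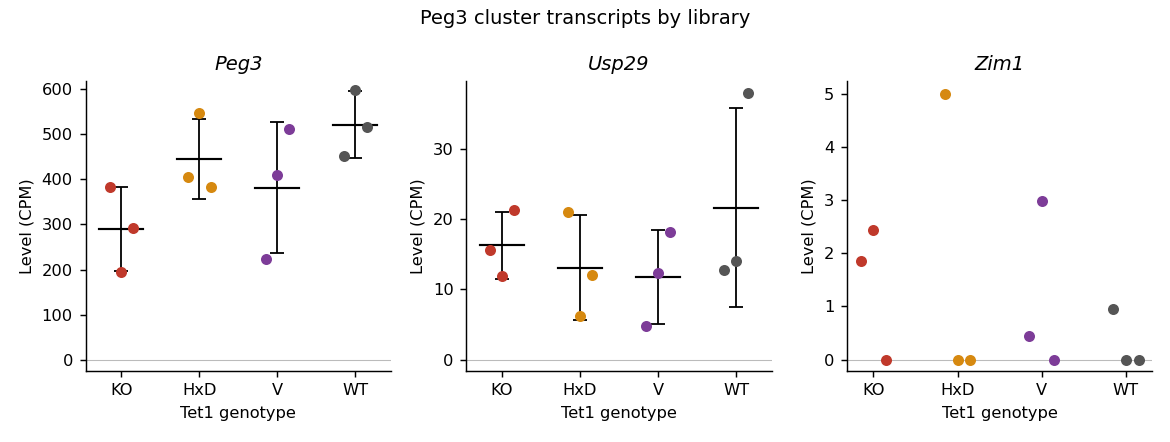
Level in CPM (vertical axis) of Peg3, Usp29 and Zim1 in each of the 12 libraries by Tet1 genotype (horizontal axis), with lines and bars for the mean ± SD of 3 libraries where no library was at 0. The 3 KO libraries of Peg3 (195 to 382 CPM) sit below the 3 WT libraries (451 to 598 CPM), and the other groups overlap WT.

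Peg10 and Sgce, which share a start region, had few counts in these libraries. Peg10 derives from an ancient retrotransposon and is needed in the placenta. Its counts were 0, 54 and 0 in KO, 0, 47 and 0 in HxD, 46, 93 and 65 in V, and 0, 19 and 164 in WT. V was the only genotype with a Peg10 count in every library, but its levels of 2.06, 4.21 and 4.77 CPM lay inside the WT range of 0 to 7.19 CPM. The V libraries lay above the HxD libraries, the highest of which had 2.01 CPM, where 4.79% of all tested genes lay wholly higher in V. The difference of V and HxD had edgeR adjusted p = 1, and of all genes edgeR called 0 and DESeq2 115, with 505 higher and 240 lower ones at an unadjusted edgeR p under 0.05. Against WT, the edgeR adjusted p of Peg10 was 0.996 in KO, 0.958 in HxD and 1 in V.

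Sgce encodes epsilon-sarcoglycan, a membrane protein linked to the dystrophin complex. It had 44 counts in HxD 1, 16 counts in V 2 and 0 in the other 10 libraries, including all of KO and WT, so no fold change is given. The correlation of Peg10 and Sgce (Pearson r of -0.09, permutation p = 0.735, adjusted 0.735; Spearman rho of -0.04, permutation p = 0.909, adjusted 0.909) rests on those 2 libraries with a count. With HxD 1 and HxD 3 left out, the farthest from the Peg10 median, r was 0.29 (permutation p = 0.599).

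**Figure D4:**
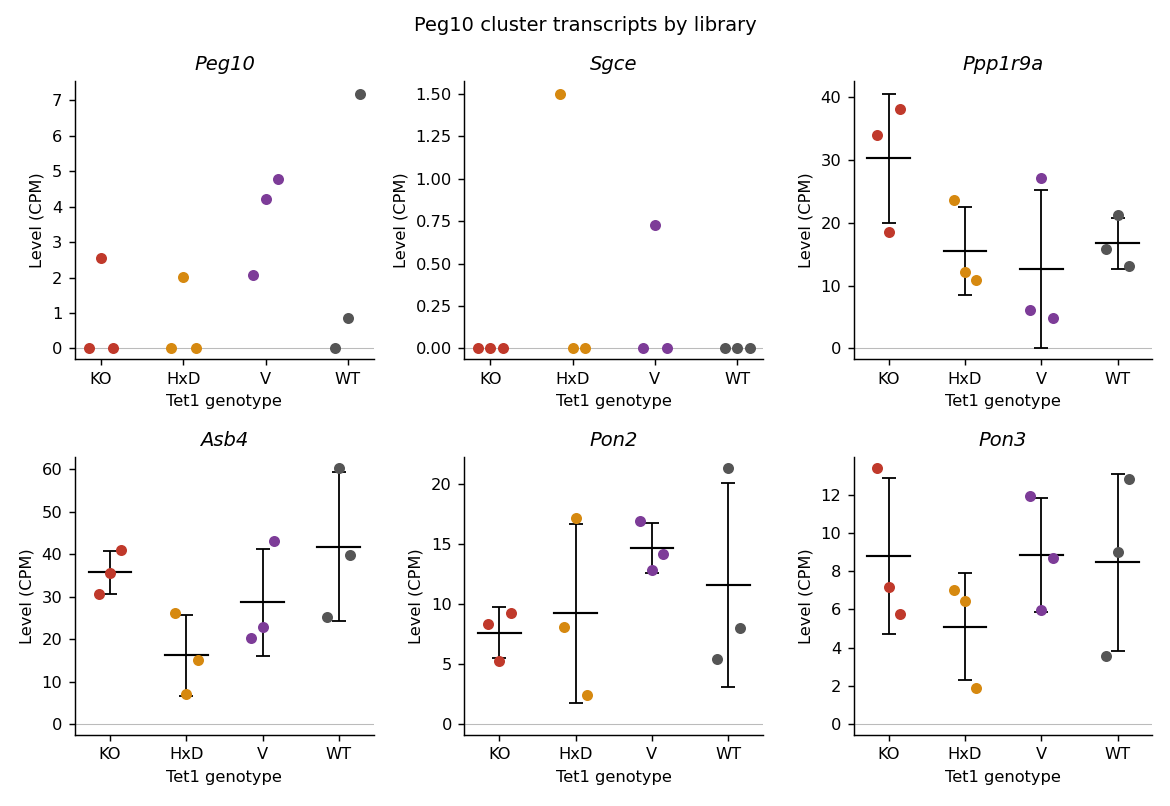
Level in CPM (vertical axis, with a scale of its own for each gene) of the 6 Peg10 cluster genes in each of the 12 libraries by Tet1 genotype (horizontal axis), with lines and bars for the mean ± SD of 3 libraries where no library was at 0. Peg10 and Sgce are at 0 in 5 and 10 libraries, and the 3 HxD libraries of Asb4 (7.19 to 26.2 CPM) sit below the 3 KO libraries (30.7 to 40.9 CPM).

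Asb4, an ankyrin repeat protein with a SOCS box that acts in ubiquitin ligases, was the most abundant gene of the Peg10 cluster per kilobase in each genotype. It had 30.7, 35.6 and 40.9 CPM in KO, 26.2, 7.19 and 15.2 in HxD, 20.2, 22.8 and 43.2 in V, and 25.2, 60.3 and 39.9 in WT. HxD 2 and HxD 3 lay below every other library, while HxD 1 lay within the WT range. The mean was 16.2 ± 9.56 CPM in HxD and 41.8 ± 17.6 in WT (SD, n = 3 each). On the log2 scale HxD lay at -1.37 relative to WT (SE 0.44, unadjusted p = 0.00414, edgeR adjusted p = 0.401), which did not pass the adjusted threshold. The value ranged from -1.91 without HxD replicate 1 to -1.01 without WT replicate 2, with edgeR adjusted p from 0.0577 to 0.633, and DESeq2 gave -1.35 (adjusted p = 0.0909).

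Between HxD and KO, Asb4 differed by -1.14 (SE 0.44, unadjusted p = 0.0143, edgeR adjusted p = 0.884), where 2.79% of all genes were lower at that unadjusted threshold. The HxD and KO libraries did not overlap, where 5.64% of all tested genes lay wholly lower in HxD. In KO and V, Asb4 differed from WT by -0.23 (95% interval -1.11 to 0.66) and -0.54 (95% interval -1.43 to 0.34), with edgeR adjusted p of 1 and 0.946.

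**Figure D5:**
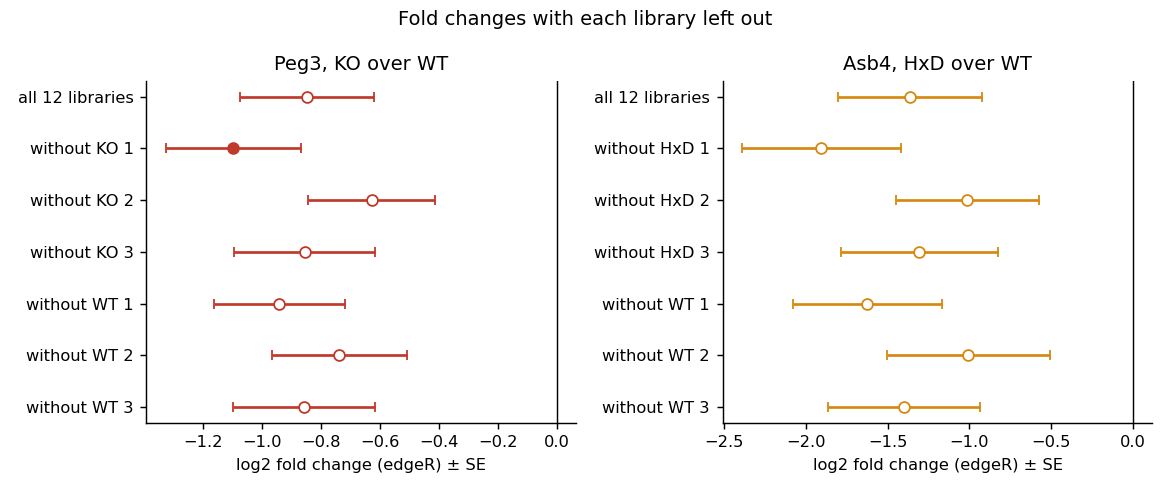
Log2 fold change ± SE (horizontal axis, edgeR) of Peg3 in KO over WT (left) and Asb4 in HxD over WT (right), with all 12 libraries and with each library of the 2 genotypes left out (vertical axis); a filled point has an adjusted p under 0.05. Peg3 ran from -1.10 to -0.63 and passed only without KO 1, and Asb4 ran from -1.91 to -1.01 and did not pass.

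Ppp1r9a encodes neurabin, which binds actin and protein phosphatase 1. Its level was 34, 18.6 and 38.2 CPM in KO, 23.6, 12.1 and 10.9 in HxD, 6.08, 27.2 and 4.84 in V, and 15.9, 21.2 and 13.2 in WT. KO 1 and KO 3 were the highest libraries and V 1 and V 3 the lowest. The log2 fold change over WT was 0.85 in KO (SE 0.58), -0.11 in HxD (SE 0.58) and -0.40 in V (SE 0.58), with edgeR adjusted p of 0.745, 1 and 1. The V value ran from -1.62 without V replicate 2 to -0.0099 without V replicate 3. V differed from KO by -1.25 (SE 0.59, unadjusted p = 0.0417, edgeR adjusted p = 1), where 1.81% of all genes were lower at that unadjusted threshold. The difference was -2.47 without V replicate 2, whose level lay within the KO range, and -0.86 without V replicate 3 (unadjusted p = 0.172, edgeR adjusted p = 1). EdgeR called 0.0204% of all tested genes between V and KO.

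Pon2 and Pon3 encode paraoxonases, enzymes that split lactones, and as paralogs they may share some reads. Pon2 had 8.35, 5.22 and 9.28 CPM in KO, 8.07, 17.2 and 2.39 in HxD, 16.9, 12.8 and 14.2 in V, and 5.46, 21.3 and 7.97 in WT. Every V library lay above every KO library, where 5.15% of all tested genes lay wholly higher in V, with a log2 fold change of 0.94 (95% interval -0.71 to 2.60, unadjusted p = 0.254, edgeR adjusted p = 1). Pon3 had 13.4, 7.19 and 5.73 CPM in KO, 7.01, 6.42 and 1.87 in HxD, 11.9, 5.97 and 8.66 in V, and 3.56, 9 and 12.8 in WT, with overlap between all genotypes. Against WT, the 95% intervals reached from -1.95 to 2.05 in KO and -2.74 to 1.28 in HxD for Pon3, so 2-fold changes in either direction lay within them.

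The neighbours of both clusters were read from lists of genes on either side. Of 8 genes listed beside the Peg3 cluster, 7 were in the table, 5 were tested and 0 were called against WT in KO, HxD or V. Aurkc, a kinase of meiotic chromosomes, averaged 15.9 ± 4.8 CPM in HxD against 30.6 ± 4.25 in WT (edgeR adjusted p = 0.6), and the zinc finger gene Zfp583 averaged 18.2 ± 0.69 CPM in HxD against 6.86 ± 4.86 in WT (edgeR adjusted p = 0.609). Zim2 had counts in 2 libraries, 6 in KO 2 and 56 in WT 1, and the antisense gene Peg3os had none.

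Of 14 genes listed around the Peg10 cluster, 7 were tested and 0 called. Slc25a13, a mitochondrial aspartate-glutamate carrier, averaged 127 ± 22 CPM in KO against 87.5 ± 22 in WT (unadjusted p = 0.0269, edgeR adjusted p = 0.526). Dync1i1, a dynein subunit gene beyond Asb4, had counts of 0 in all KO and HxD libraries and 0, 1 and 0 in V, against 24, 80 and 62 in WT. Its edgeR adjusted p was 0.568 in KO, 0.586 in HxD and 0.833 in V. Of all tested genes, 8.15% lay wholly lower than WT in KO, 7.22% in HxD and 6.06% in V. With counts above 1 only in WT, Dync1i1 passed the low-count filter through that genotype alone. Its p-values are not independent of that choice. Pon1, the third paraoxonase gene, had no count in any library.

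Among 8 genes that maintain imprints or bind at control regions, 0 were called. Uhrf1, which directs the maintenance methyltransferase to hemimethylated DNA, averaged 49.7 ± 18.1 CPM in KO, 51.8 ± 17 in HxD and 84.5 ± 26.7 in V, against 115 ± 10.9 in WT. Its log2 fold change was -1.21 in KO (SE 0.28, edgeR adjusted p = 0.0712) and -1.15 in HxD (SE 0.28, edgeR adjusted p = 0.193). Setdb1, a histone H3 lysine methyltransferase, was the next by p, at 252 ± 29.7 CPM in KO and 312 ± 33.8 in WT (edgeR adjusted p = 0.618).

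Other imprinted genes were not called either. Of 24 paternally expressed genes from other loci, 19 were tested, 0 were called against WT, and the median log2 fold change was 0.01 in KO, -0.28 in HxD and 0.06 in V. Inpp5f, a phosphoinositide phosphatase, averaged 34.6 ± 8.11 CPM in KO against 63.3 ± 15.4 in WT (edgeR adjusted p = 0.44), and Plagl1, a zinc finger gene, 24.6 ± 18.2 against 9.03 ± 3.79 (edgeR adjusted p = 0.539). Of 24 maternally expressed genes, 18 were tested and 0 called, with medians of -0.18, -0.30 and 0.04. Gnas, a G protein subunit gene, averaged 135 ± 4.88 CPM in V against 76.9 ± 18.3 in WT (edgeR adjusted p = 0.48). Gatm, an enzyme of creatine synthesis, had counts of 0, 0 and 1 in HxD, against 21, 53 and 480 in WT (edgeR adjusted p = 0.256). Of all tested genes, 7.22% lay wholly lower in HxD than in WT. Its counts in V were 0, 601 and 6, and in KO 38, 169 and 111.

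Some genes outside the clusters followed Peg3 more closely than the other tested members did. Among 8941 genes averaging at least 8 CPM, with predicted and unnamed models left out, those with the highest Pearson r to Peg3 over the 12 libraries were Akap11 (0.93), Ddx3x (0.92), Polr2a (0.92), Larp4b (0.91) and Ccp110 (0.91). They are the top of a long ranking, so a higher r than that of a few set genes is built in. Usp29 would stand at place 2012 in that order and Tet1, with r of 0.77, at place 180. For Peg10 the 5 were Igf2bp2 (0.90), Dimt1 (0.88), Ddx39 (0.82), Nid1 (0.82) and Pms2 (0.80), over libraries of which 5 had no Peg10 count. These values describe the 12 libraries pooled over the genotypes, with genotype differences left in. The r of Tet1 therefore includes its low level in KO. All genes of a library also share its depth and RNA quality.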

How the data were processed

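RNA from Oct4-GFP-sorted E14.5 male germ cells was sequenced after oligo-dT capture, per the labels' protocols. The values deposited by the authors are raw counts, 1 whole number per gene symbol and library. The submitters' processing notes list featureCounts 2.0.3, STAR 2.7.10b, Trim Galore 0.6.7, FastQC and SAMtools 1.9. The sources used here name no annotation and no strand setting, so reads of a gene and an overlapping or antisense gene cannot be told apart. A column that names no sample was not used (1 of 13), which left 12 libraries in all fits.

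From the counts, edgeR 4.0.16 (R 4.3.3) was run with its default expression filter (14702 genes), TMM scaling and the quasi-likelihood F-test with genotype as the only term. Two-sided p-values were adjusted by the Benjamini-Hochberg method across the whole table, and 0.05 was the threshold. The common biological coefficient of variation was 0.932. On simulated data for KO against WT with 14702 genes, all of the changed genes averaging at least 8 CPM, 33% of 2-fold changes and 81% of 4-fold changes were recovered, 100 genes of each in 1 simulation, with 7 false calls among the unchanged genes.

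Log2 CPM used a prior count of 2, and correlations 100000 permutations. Alternatives were RLE scaling, DESeq2 1.42.0, no filter, a stricter filter (10 counts in 6 libraries), 2 genotypes only, a replicate block, WT 3 and V 3 set aside, and each library left out. The members and lists were chosen with earlier results of these data known. Named are the members, any called gene of a list or otherwise its 2 genes of smallest p against WT, the 5 genes most like Peg3 and Peg10, and some genes chosen after their values were seen (Zim2, Peg3os, Pon1, Dazl, Rtl6 and Nap1l5).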

Additional observations from a re-analysis of the deposited data

How the results depend on the processing

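Under the alternatives, 30 log2 fold changes were recomputed, which gave 389 values, and Zim1 in HxD was not tested with 2 genotypes only. Of these, 363 kept their direction and their side of the threshold, 3 passed it newly (all Peg3 in KO, the third being -0.82 with a replicate block, edgeR adjusted p = 0.0102) and 23 changed sign. Apart from leaving out libraries, the sign changed for Pon3 with a replicate block (-0.10 in KO, -0.051 in V), and with WT 3 and V 3 set aside for Usp29 in KO (0.27) and Peg10 in KO (0.96) and HxD (0.63). Leaving out each library gave ranges that crossed 0 for Usp29 in KO (-0.68 to 0.27), Asb4 in KO (-0.49 to 0.13), Pon2 in KO (-0.94 to 0.18) and HxD (-1.14 to 0.45), Pon3 in KO (-0.39 to 0.48) and V (-0.30 to 0.49), Ppp1r9a in HxD (-0.55 to 0.10) and Tet1 in HxD (-0.091 to 0.15). Without crossing 0, values in V ran widely for Usp29 (-1.33 to -0.19), Asb4 (-0.96 to -0.18) and Pon2 (0.002 to 1.12). Ranges crossed 0 as well for Peg10 in KO (-8.87 to 0.96), HxD (-8.86 to 0.63) and V (-0.13 to 3.07) and Zim1 in HxD (-5.77 to 8.20) and V (-0.48 to 7.66), fitted values that turn on libraries at 0.

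The count of members called in KO was 0, but 1 (Peg3) with no filter and with a replicate block, and 0 to 1 when leaving out a library. Counts of all called genes moved widely, in the order KO, HxD and V over WT, then HxD over KO, V over KO and V over HxD. They were 32, 5, 0, 1, 3 and 0 in the reported fit, 274, 213, 81, 128, 89 and 115 in DESeq2, 148, 67, 32, 8, 21 and 5 with no filter, and 104, 45, 8, 8, 16 and 2 with a replicate block. The stricter filter gave 15 in KO and 1 in HxD, 2 genotypes only gave 12 in KO, 2 in HxD and 0 for V over KO, and WT 3 and V 3 set aside gave 11, 2 and 0. Leaving out a library gave 15 to 95, 1 to 47, 0 to 10, 1 to 14, 2 to 18 and 0 to 11. Over 18 same-numbered pairs, deviations from the genotype means correlated from -0.0647 to 0.0879. This check gave no sign that the replicate numbers pair the libraries, but it cannot exclude pairing. The correlation of Peg10 and Sgce changed sign with WT 3 and V 3 set aside (0.026), and ranged from -0.33 to 0.30 when leaving out a library. The cause of these changes was not tested. How small a change could be detected in genes averaging under 8 CPM was not tested.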

Other observations

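Of 11 listed genes derived from retrotransposons of the same family as Peg10, 10 were in the table under current or older symbols, 3 were tested and 0 called against WT. Rtl6 (listed as Ldoc1l) had counts of 138, 237 and 332 in KO, 306, 398 and 0 in HxD, 72, 151 and 191 in V, and 399, 165 and 48 in WT. Ldoc1 had counts of 179, 0 and 28 in KO, 0 in all HxD libraries, 0, 43 and 21 in V, and 0, 36 and 0 in WT, with edgeR adjusted p = 0.61 in HxD. Rtl5 (listed as Rgag4) had 0, 40 and 25 in KO, 0 in all HxD libraries, 0, 1 and 0 in V, and 0, 50 and 0 in WT, with edgeR adjusted p = 0.617 in HxD.

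Of 5 sarcoglycan genes other than Sgce, 1 was tested. Sgcb, beta-sarcoglycan, had counts of 0, 34 and 38 in KO and 0 in all HxD libraries. In V they were 41, 23 and 0, and in WT 28, 31 and 0. The edgeR adjusted p of Sgcb was 0.608 in HxD, 1 in KO and 1 in V. Markers of other cell types, among them Cd68, Hsd3b1 and Fst, were also at 0 in all HxD libraries. The share of all genes at 0 in every HxD library was not counted. Nap1l5, a paternally expressed gene of another locus, had 0 counts in all KO libraries and 43, 36 and 68 in HxD. V had 0, 33 and 0 counts, and WT had 0, 37 and 0. Between HxD and KO its edgeR adjusted p was 0.884, where 3.69% of all tested genes lay wholly higher in HxD.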
